A study of Mus musculus with 11 samples.

Results

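The genes described here are the mouse genes whose symbol starts with 1700 and ends with Rik, names that RIKEN gave to complementary DNA clones of an adult testis library. They were chosen by name alone, by matching the gene identifiers of the count table to GENCODE M21 symbols, and 128 of the 23074 genes in the table carried such a name. Another 392 genes of this kind in the annotation, 201 of them lincRNAs, were not in the table. Of the 128 members, 98 were annotated as protein coding, 16 as lincRNA and 8 as antisense, with 1 bidirectional promoter lncRNA and 5 pseudogenes. The median coding member had 198 codons and the range was 71 to 1183. A symbol was found for 120 members in RefSeq, for 9 of them under a later name, such as Fam166c for 1700001C02Rik and Ms4a20 for 1700017D01Rik.

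RNA-Seq had been done on decapsulated whole testes at postnatal day 21, from 5 wild type and 6 Rfx2-/- mice. Both genotypes are taken to be on a mixed C57BL/6, 129/Sv and FVB/N background. The paper also describes a line without the neomycin selection cassette, backcrossed onto C57BL/6, and does not say which line was sequenced. In the Rfx2-/- mice exon 7 of Rfx2, which codes for most of the DNA binding domain of RFX2, had been removed with a ubiquitous ACTB-Cre, so that it was missing from every cell and not from germ cells alone. Littermates of one age were used where possible. The comparison asks which of the members differ in testes that lack RFX2 at the age when the first spermatids appear. Whole testis was sequenced, and fewer cells of a type and less RNA per cell cannot be told apart.

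Spermatogenesis in the mouse starts with a synchronous first wave, in which spermatogonia become spermatocytes, pass meiosis and give round spermatids, the cells that later build a flagellum and an acrosome. RFX2 is a winged helix transcription factor of late spermatocytes and early round spermatids. It binds X-boxes, imperfect inverted repeats of the letters GTTGCC that are found near the starts of many genes for cilia and flagella. Clones of the 1700 series come from a library of testes in which all stages were present, and many of their genes have still not been given a functional name.

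Total counts were 26925157 to 29769483 in the wild type mice and 22232097 to 27116903 in the Rfx2-/- mice. Levels are given as CPM, each count relative to the library's total as scaled by TMM, which puts 3 counts, taken as the floor of a library, at 0.0852 to 0.139 CPM. This range comes from the scaled library sizes alone. The whole-gene count of Rfx2 was 191 to 472 CPM in wild type and 282 to 324 CPM in Rfx2-/- mice. It does not show the loss of exon 7, because the other exons were counted too. All listed markers of pachytene spermatocytes, round spermatids and Sertoli cells were detected.

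The promoters of 4 members are shown because they carry the letters that RFX proteins are known to bind and belong to 3 members that were downregulated and 1 that was not. They are RefSeq sequences of build GRCm38.p6, from 250 bases before to 50 bases after the transcription start, in the direction of the gene. Capitals mark the X-box pattern in the first and the last sequence, searched as GTNNCC followed by 2 free bases and GGNNAC, which reads the same on both strands. In the other pair, and outside the pattern in the last sequence, they mark matches to GTTGCC, a single arm of the X-box, on either strand. The promoters lie at chr4:144438723-144439022 on the minus strand, chr5:30465827-30466126 on the plus strand, chr2:173522342-173522641 on the plus strand and chr17:8988083-8988382 on the plus strand, in the order shown.
1700012P22Rik: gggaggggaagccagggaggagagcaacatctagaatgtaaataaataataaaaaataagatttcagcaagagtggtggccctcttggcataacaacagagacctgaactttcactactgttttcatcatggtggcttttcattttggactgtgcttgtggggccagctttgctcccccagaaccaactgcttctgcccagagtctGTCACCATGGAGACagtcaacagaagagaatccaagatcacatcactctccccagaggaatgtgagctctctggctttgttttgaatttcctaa
1700001C02Rik: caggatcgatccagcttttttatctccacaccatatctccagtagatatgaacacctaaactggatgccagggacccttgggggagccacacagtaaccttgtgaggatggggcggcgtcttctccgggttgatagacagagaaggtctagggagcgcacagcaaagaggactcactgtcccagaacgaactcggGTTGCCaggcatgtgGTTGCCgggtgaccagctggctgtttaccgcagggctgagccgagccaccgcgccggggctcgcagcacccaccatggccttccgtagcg
1700021F07Rik: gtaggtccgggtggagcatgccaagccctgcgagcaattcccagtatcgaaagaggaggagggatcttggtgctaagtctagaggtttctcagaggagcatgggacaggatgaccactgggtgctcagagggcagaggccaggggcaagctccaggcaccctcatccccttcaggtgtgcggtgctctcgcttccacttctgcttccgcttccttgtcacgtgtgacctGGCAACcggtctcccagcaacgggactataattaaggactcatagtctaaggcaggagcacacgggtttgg
1700010I14Rik: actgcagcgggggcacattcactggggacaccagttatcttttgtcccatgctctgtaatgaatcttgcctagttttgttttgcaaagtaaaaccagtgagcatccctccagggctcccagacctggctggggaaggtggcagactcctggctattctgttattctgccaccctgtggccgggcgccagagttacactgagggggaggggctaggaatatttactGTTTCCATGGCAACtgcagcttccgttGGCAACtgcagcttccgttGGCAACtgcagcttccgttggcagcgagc

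The match in 1700012P22Rik starts 44 bases before the transcription start and that in 1700010I14Rik 25 bases before it. The promoter of 1700001C02Rik holds 2 arms, 55 and 40 bases before the start, and that of 1700021F07Rik holds 1 on the minus strand at 21 bases. The first 3 genes were nearly silent in Rfx2-/- testes, whereas the fourth was among the most abundant members in both genotypes.

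Of the 128 members, 107 passed the filter on low counts and were tested. The 21 others had 3 to 336 counts over all 11 mice, with no more than 174 in any mouse, and 11 of them were protein coding. In Rfx2-/- testes 6 members were more than 2-fold downregulated at an adjusted p of at most 0.01 (edgeR's quasi-likelihood test, Benjamini-Hochberg adjustment over all genes tested). The count of 6 was 5.61% of the tested members, beside 1.04% of the 15745 genes tested. With no limit on the fold change 7 members (6.54%) were lower, beside 1.94% of all genes. None was higher in the same edgeR test, either past 2-fold, where 0.216% of all genes were called, or at any fold change, where 0.73% were called. At an unadjusted p of at most 0.05 there were 16 members higher (14.95%, beside 18.1% of all genes) and 13 lower (12.1%, beside 23.7%). The Wald test of DESeq2 called 2 members higher past 2-fold, beside 0.686% of all genes, and 4 at any fold change, beside 7.28%, while limma voom called none past 2-fold, beside 0.33%. The 7 members called were all protein coding, as were 87 of the 107 tested members.

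Of the downregulated members 3 code for small proteins known as microtubule inner proteins, which line the doublet microtubules of axonemes, the core of cilia and flagella. Members that were not called were not sorted by this protein class, so these 3 do not describe the class as a whole. The first was 1700012P22Rik (ENSMUSG00000028589, chr4:144418189-144438772, minus strand, 196 codons), also known as Cfap107. Its level was 22.9, 10.3, 2.10, 5.54 and 1.10 CPM in wild type replicates 1 to 5. In the Rfx2-/- mice 1 read was counted in replicate 9 and none in the other 5. The genotypes did not overlap, although the wild type mice themselves spread 20.8-fold. Set against the floor of 3 counts in each Rfx2-/- library, the level was at least 64.8-fold lower, and at least 36.7-fold lower when wild type replicate 1, the highest mouse, was left out (adjusted p = 0.000521 by edgeR in all mice). The call was lost when the Rfx2-/- mouse with the single read was left out (adjusted p = 0.0212 by edgeR).

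The second, 1700001C02Rik or Fam166c (ENSMUSG00000029182, chr5:30466047-30484088, plus strand, 200 codons), belongs to the FAM166 family of axonemal proteins. It was at 27.3, 11.8, 1.36, 6.73 and 2.36 CPM in wild type replicates 1 to 5. Rfx2-/- replicates 6 to 11 had 0, 2, 0, 1, 1 and 1 reads, all under the floor. It was at least 76.5-fold lower (adjusted p = 0.000712 by edgeR), and at least 43.0-fold lower without wild type replicate 1.

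The third, 1700021F07Rik (ENSMUSG00000027518, chr2:173522586-173528501, plus strand, 136 codons), is also known as Cimip1. Wild type replicates 1 to 5 were at 51.6, 27.8, 6.16, 20.4 and 7.51 CPM. The Rfx2-/- mice lay between 0 and 0.702 CPM with a median of 0.263. Even the lowest wild type mouse was above every Rfx2-/- mouse, and the log2 fold change was −6.20 ± 0.78 (standard error, adjusted p = 0.000813 by edgeR).

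The promoters of these 3 genes are those printed above. Both 1700001C02Rik and 1700021F07Rik stand in the study's list of promoters bound by RFX2 in ChIP-Seq of testis, and 1700012P22Rik does not.

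The lowest adjusted p of any member was that of 1700017D01Rik, or Ms4a20 (ENSMUSG00000024729, chr19:11096816-11130876, minus strand, 209 codons), a gene of the family of membrane proteins that includes the B cell antigen CD20. Wild type replicates 1 to 5 had 107, 76.5, 24.7, 81.1 and 29.0 CPM, and the Rfx2-/- mice 0.647 to 0.958 CPM with a median of 0.868. Every Rfx2-/- mouse thus kept a low level within a narrow range, above the floor. The log2 fold change was −6.25 ± 0.42 (adjusted p = 1.63e-05 by edgeR), and its promoter was in the RFX2-bound list. The neighbouring member 1700025F22Rik, or Ms4a19 (chr19:11139664-11165320, minus strand), of the same family, did not share this pattern. It was at 46.0, 37.0, 10.5, 37.4 and 7.20 CPM in wild type mice and at 29.0 to 59.6 CPM in Rfx2-/- mice with a median of 40.9. The genotypes overlapped, with a log2 fold change of 0.61 ± 0.44 (adjusted p = 0.300 by edgeR), and the gene was chosen for mention after its values were seen. Ms4a20 overlaps the predicted gene Gm6501, and reads shared by exons of different genes were not counted.

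1700018F24Rik (ENSMUSG00000029620, chr5:145042990-145045681, plus strand, 314 codons) overlaps the span of Kpna7, an importin gene. Its wild type levels were 40.02, 29.9, 12.04, 29.996 and 9.12 CPM, against 0.740 to 1.98 CPM with a median of 1.26 in Rfx2-/- mice. The groups stood apart, with a log2 fold change of −4.27 ± 0.44 (adjusted p = 0.000229 by edgeR). The libraries do not mark the strand, so reads of 1700018F24Rik and of an overlapping transcript cannot be told apart where no exon of the other gene is annotated.

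The sixth, 1700012B09Rik (ENSMUSG00000031927, chr9:14756587-14771030, minus strand, 132 codons), kept the most RNA. Wild type mice were at 62.1, 47.5, 19.6, 42.5 and 18.5 CPM and Rfx2-/- mice at 4.39 to 10.03 CPM with a median of 6.74. No Rfx2-/- mouse reached the lowest wild type mouse, and the log2 fold change was −2.46 ± 0.35 (adjusted p = 0.00182 by edgeR). Its promoter holds 1 arm, 78 bases before the start, and was not in the bound list.

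The one member called at a smaller fold change was 1700011M02Rik (ENSMUSG00000079476, chrX:102908905-102909651, plus strand, 88 codons). It had 30.7, 39.8, 39.2, 38.4 and 42.8 CPM in wild type mice and 23.4 to 29.4 CPM with a median of 27.1 in Rfx2-/- mice. The groups did not overlap and the mice of each were close together, unlike the members above. The log2 fold change was −0.51 ± 0.09 (adjusted p = 0.00810 by edgeR), and leaving out single mice kept the call in 1 of 11 fits, with an adjusted p of up to 0.0251. Dmrtc1a, which starts within 1000 bases on the opposite strand, had a log2 fold change of −0.20 ± 0.06 (adjusted p = 0.0454 by edgeR).

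**Figure D1:**
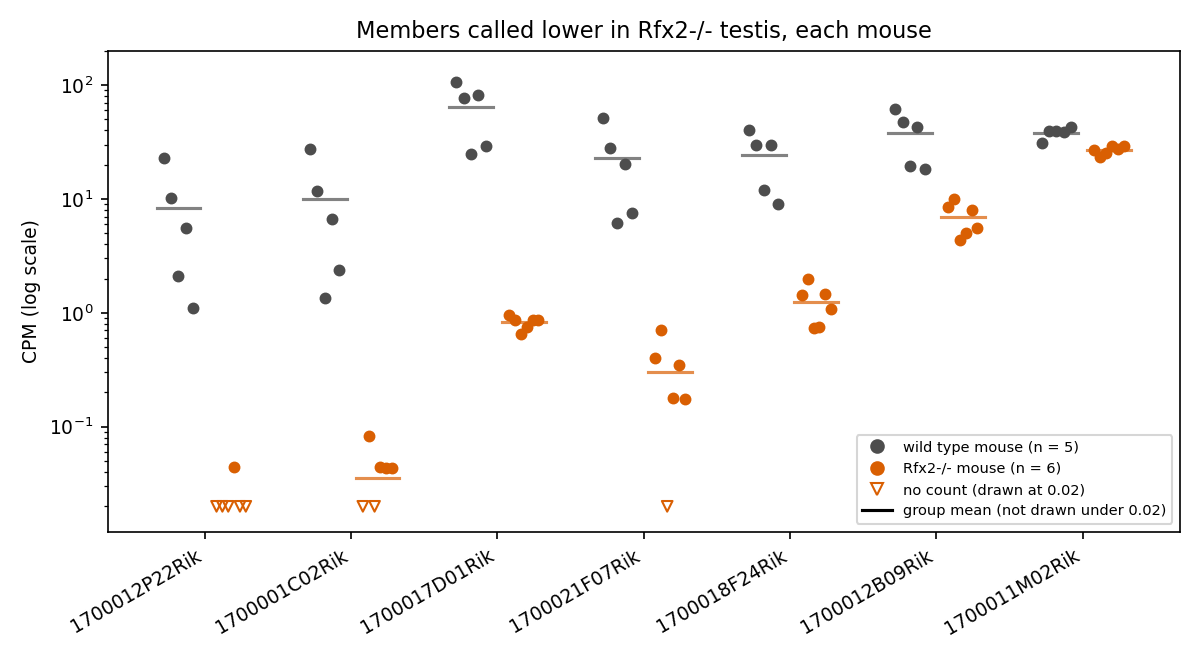
Level in CPM (logarithmic axis) of the 7 members called lower, for each of the 5 wild type mice (grey) and 6 Rfx2-/- mice (orange). Lines are group means, and open triangles are mice without a read. In every one of the 7 genes all Rfx2-/- mice lie below all wild type mice, and for 1700017D01Rik the Rfx2-/- mice sit between 0.647 and 0.958 CPM.

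Another 7 members had log2 fold changes below −1 without passing the test, and they are named here after their values were seen. 1700024G13Rik (93 codons) had 9.55, 3.46, 0.568, 1.44 and 0.472 CPM in wild type mice and 0 to 0.248 CPM with a median of 0.0453 in Rfx2-/- mice. The genotypes did not overlap, but the wild type mice differed 20.2-fold, and the log2 fold change was −4.90 ± 0.96 (adjusted p = 0.0120 by edgeR). It was the eighth tested member with every Rfx2-/- mouse below every wild type mouse, beside the 7 called. These 8 were 7.48% of the tested members, and the same held for 5.2% of all genes tested. Among the members not tested, 1700021P04Rik and the antisense gene 1700060C20Rik also had no overlap. The 5.2% covers tested genes only, and no such share is given for genes not tested. 1700021P04Rik lay near the floor, at 0.0314 to 0.352 CPM in wild type mice, and had no read in Rfx2-/- mice. Against the floor it was at least 1.60-fold lower, with no test. 1700060C20Rik was at 1.87, 1.01, 0.170, 0.666 and 0.126 CPM in wild type mice and had reads in a single Rfx2-/- mouse, at 0.0869 CPM. It was at least 5.93-fold lower against the floor, with no test. For 1700001O22Rik (375 codons) the wild type mice were at 20.01, 11.4, 4.66, 11.4 and 2.61 CPM and the Rfx2-/- mice at 0.622 to 3.47 CPM. Only Rfx2-/- replicate 7 reached the wild type range, and the log2 fold change was −2.81 ± 0.58 (adjusted p = 0.0147 by edgeR). 1700008O03Rik, which overlaps Shank1 and Syt3, had 20.05, 13.3, 4.57, 10.2 and 3.58 CPM in wild type mice and 2.54 to 4.46 CPM in Rfx2-/- mice. Its log2 fold change was −1.64 ± 0.40 (adjusted p = 0.0268 by edgeR). DESeq2 and limma voom both called these 3 genes lower past 2-fold, which made 9 members in each, beside 1.46% of all genes with DESeq2 and 1.5% with voom.

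The rest were 1700109H08Rik (−1.91 ± 0.76), 1700028P14Rik (−1.67 ± 0.96), 1700001L19Rik (−1.40 ± 1.03) and 1700019D03Rik (−1.06 ± 1.44). 1700028P14Rik and 1700001L19Rik are also known as Cfap95 and Cfap90, genes of cilia and flagella associated proteins. For 1700028P14Rik wild type levels of 74.9, 36.3, 5.51, 16.5 and 3.65 CPM stood against Rfx2-/- levels of 0.800 to 25.3 CPM. 1700001L19Rik was at 36.2, 15.2, 1.85, 2.77 and 1.60 CPM against 0.533 to 13.6 CPM. Both ranges overlapped widely, and in both genes Rfx2-/- replicate 7 was the highest of its group. The promoter of 1700001L19Rik holds an arm on each strand, 21 and 14 bases before the start. When wild type replicate 1 was left out, log2 fold changes were −0.66 for 1700109H08Rik, −0.85 for 1700028P14Rik, −0.30 for 1700001L19Rik and 1.05, with the sign changed, for 1700019D03Rik.

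**Figure D2:**
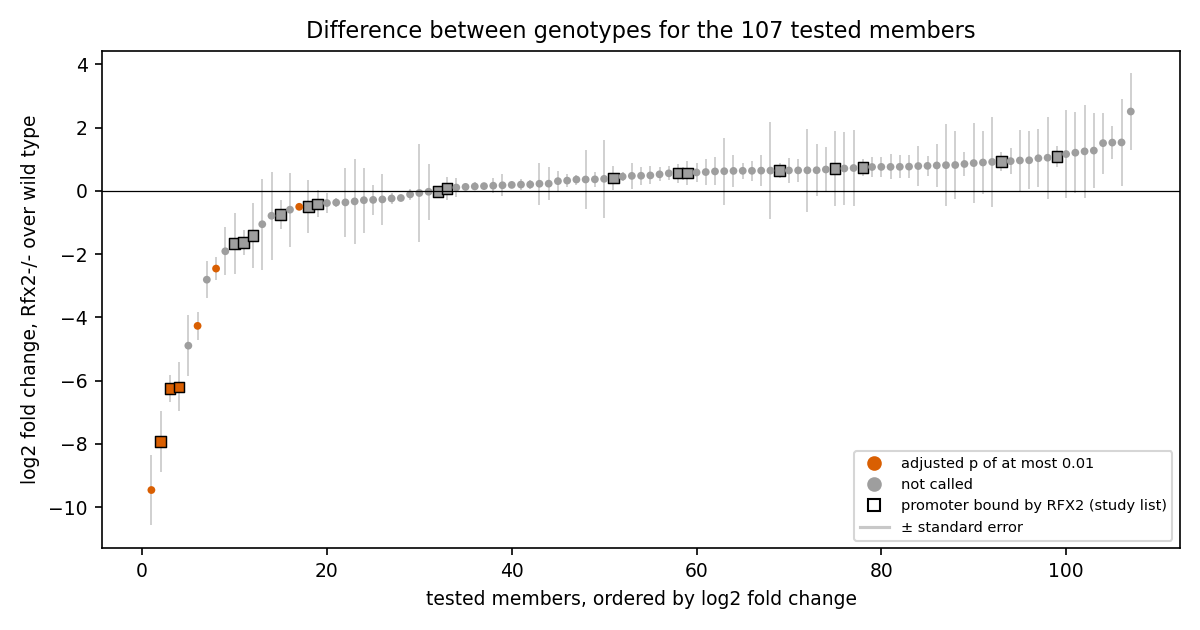
Log2 fold change of Rfx2-/- over wild type, with its standard error (grey bars), for the 107 tested members in order of fold change. Orange points passed an adjusted p of at most 0.01, and squares are members whose promoter is in the RFX2-bound list. The 7 called members lie below 0, and 75 of the 107 lie above 0.

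Most members stood slightly higher in Rfx2-/- testes without a call. The log2 fold change was above 0 in 75 of the 107 (70.1%), beside 45.2% of all genes, and its median was 0.48 over the members and −0.05 over all genes. Over the 100 members not called the median was 0.56. With total counts as library sizes the median of all genes moved to −0.22 and that of the members to 0.34, with 70 members above 0. Every Rfx2-/- mouse was above every wild type mouse for 3 members (2.80%, beside 6.5% of all genes), and 96 had overlapping genotypes.

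The 3 without overlap, named after their values were seen, were 1700010I14Rik, 1700017B05Rik and the antisense gene 1700065D16Rik. 1700010I14Rik (ENSMUSG00000023873, chr17:8988333-9011949, plus strand, 532 codons) was at 608, 490, 218, 472 and 173 CPM in wild type mice. In Rfx2-/- replicates 6 to 11 it was at 837, 898, 685, 612, 786 and 671 CPM. The lowest Rfx2-/- mouse was thus just above the highest wild type mouse, and the log2 fold change was 0.93 ± 0.30 (adjusted p = 0.0565 by edgeR). 1700017B05Rik (1023 codons) was at 191, 191, 161, 195 and 166 CPM in wild type and at 200 to 211 CPM in Rfx2-/- mice, and differed by 0.19 ± 0.06 on the log2 scale (adjusted p = 0.0602 by edgeR). With total counts as library sizes its difference was 0.029 (adjusted p = 0.611 by edgeR). 1700065D16Rik overlaps the span of Atr. Its values were 9.196, 6.53, 5.17, 8.76 and 3.33 CPM against 9.202 to 10.1 CPM, so that the groups all but touched.

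1700003E16Rik, with a bound promoter, had the lowest p among the members that stood higher. It was at 385, 281, 119, 244 and 95.3 CPM in wild type mice and at 368 to 600 CPM with a median of 474 in Rfx2-/- mice. The highest wild type mouse exceeded the lowest Rfx2-/- mouse, and the log2 fold change was 1.08 ± 0.33 (adjusted p = 0.0492 by edgeR). Its neighbour Wdr54, which starts within 1000 bases on the opposite strand, had a log2 fold change of −0.36 ± 0.27 (adjusted p = 0.306 by edgeR). DESeq2 called 1700003E16Rik and the pseudogene 1700086L19Rik higher past 2-fold, and 1700010I14Rik and 1700017B05Rik at smaller changes. The largest fitted value, 2.51 ± 1.21 for the lincRNA 1700010H22Rik, rested on wild type levels of 0 to 1.48 CPM and Rfx2-/- levels of 0.139 to 6.07 CPM (adjusted p = 0.136 by edgeR).

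The members varied more between mice of one genotype than other genes did. The highest wild type mouse exceeded the lowest by a median of 5.02-fold over the members and 1.60-fold over all genes. The ratio was above 10 in 38 members (35.5%, beside 3.99% of all genes) and above 100 in 15, and 7 members were at 0 in at least 1 wild type mouse. For 1700013G24Rik wild type replicates 1 to 5 were at 70.6, 17.2, 1.11, 0.946 and 0.0314 CPM, and Rfx2-/- mice at 1.99 to 111 CPM. Among wild type mice 14 members (13.1%) stayed within 2-fold, beside 69.1% of all genes. Among them were 1700025G04Rik at 29.7 to 37.3 CPM and 1700123O20Rik at 26.7 to 36.8 CPM.

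The mice kept their order from member to member. Wild type replicate 1 was the highest wild type mouse for 92 of the 107 members, beside 35.4% of all genes. Replicate 5 was the lowest for 82, beside 29.0%, and 78 members had both extremes. Rfx2-/- replicate 7 was the highest of its genotype for 89 members, beside 29.8% of all genes. For the 6 downregulated members replicate 1 was the highest wild type mouse each time, and the lowest was replicate 5 for 3 of them and replicate 3 for the other 3.

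**Figure D3:**
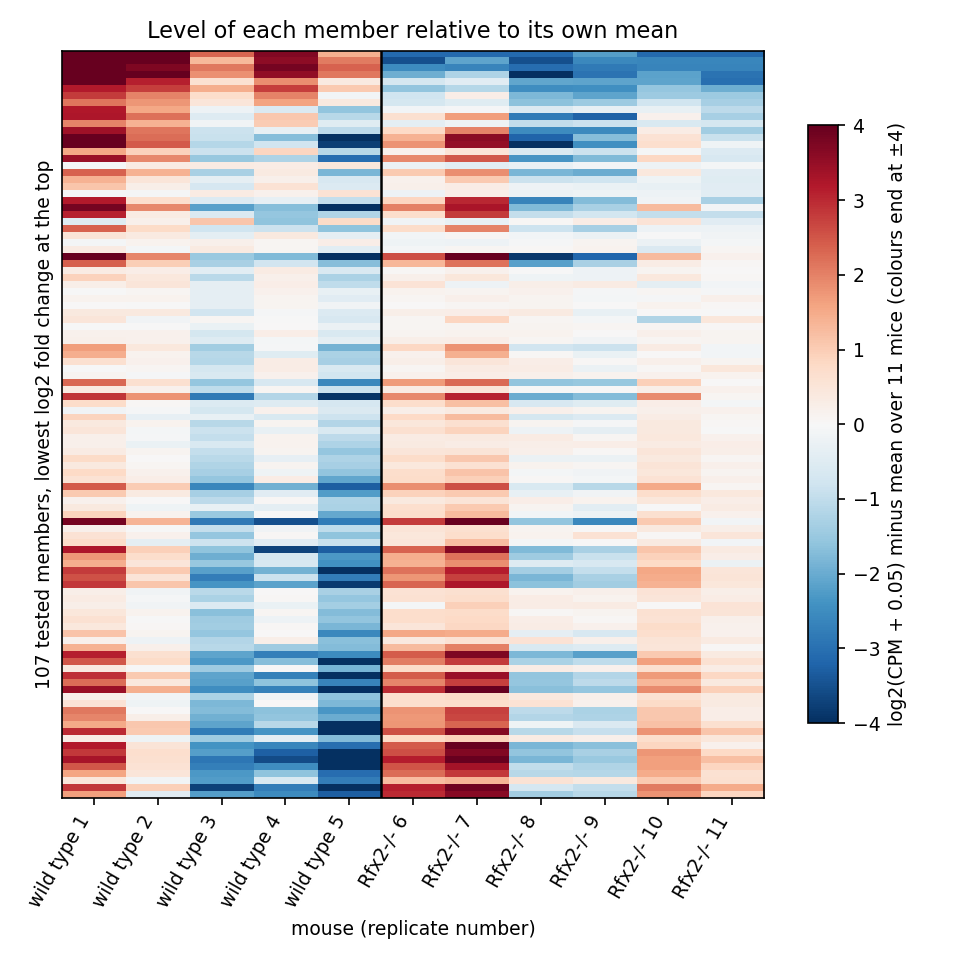
Log2(CPM + 0.05) of each tested member in each mouse, minus its mean over the 11 mice, with red above and blue below the mean. Members run from the lowest log2 fold change at the top to the highest at the bottom, and the black line parts the genotypes. Wild type 1 and Rfx2-/- 7 are the reddest columns of their genotypes, and in the topmost members all Rfx2-/- mice are blue.

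The share of a library's counts that fell on the 128 members was 0.679%, 0.514%, 0.274%, 0.467% and 0.244% in wild type replicates 1 to 5. In Rfx2-/- replicates 6 to 11 it was 0.630%, 0.730%, 0.492%, 0.461%, 0.594% and 0.513%. The means were 0.436% ± 0.180 (SD, n = 5) and 0.570% ± 0.101 (SD, n = 6), and the ranges overlapped. The 14 markers of round spermatids, among them the acrosomal gene Acrv1 and the kinase genes Tssk1 and Tssk2, ranked the 11 mice in nearly the same order as this share. None was at 0 in all mice, none is a member, and their summed level was 845, 358, 95.6, 193 and 69.7 CPM in wild type mice and 763, 1299, 229, 225, 519 and 349 CPM in Rfx2-/- mice. No round spermatid marker was called by edgeR, and 13 of the 14 had a log2 fold change above 0, with a median of 0.98. The promoter of 1 of the 14 was in the RFX2-bound list.

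Markers of other cells gave smaller or opposite differences. Summed levels in wild type and Rfx2-/- mice were 8.58 to 732 and 33.6 to 975 CPM for 10 markers of elongating spermatids. For 10 markers of pachytene spermatocytes they were 4051 to 6909 and 6605 to 7702 CPM. Those of 8 spermatogonial markers were 282 to 582 and 274 to 389 CPM, and those of 7 Sertoli markers 2302 to 3484 and 2250 to 2659 CPM. The 6 Leydig markers, of which 1 was called lower, summed to 131 to 319 and 76.1 to 282 CPM, and 5 macrophage markers to 67.1 to 110 and 55.7 to 77.8 CPM. Of 4 markers of multiciliated epithelium 2 were tested, and the list summed to 5.41 to 81.5 and 16.1 to 79.6 CPM. Spermatid markers thus varied widely within both genotypes, and the part of spermatid content in the members' differences was not tested.

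When the round spermatid score, the mean log2 CPM of the 14 markers, was added to the fit as a covariate, the median log2 fold change of the members was −0.01 and 53 of the 107 were above 0. In this fit 20 members were lower past 2-fold, beside 2.34% of all genes, including all 6 of the fit without it. The 14 others included 1700024G13Rik (−5.66 ± 0.34), 1700001O22Rik (−3.49 ± 0.29), 1700028P14Rik (−3.01 ± 0.33) and 1700001L19Rik (−2.57 ± 0.26). One member, 1700010H22Rik, was higher past 2-fold (1.54 ± 0.25), beside 0.324% of all genes. The score comes from the same libraries, and earlier results of these data had shown that it moves the number of calls. Most of its markers stood higher in Rfx2-/- mice and 1 had a bound promoter, so the score is not independent of genotype.

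**Figure D4:**
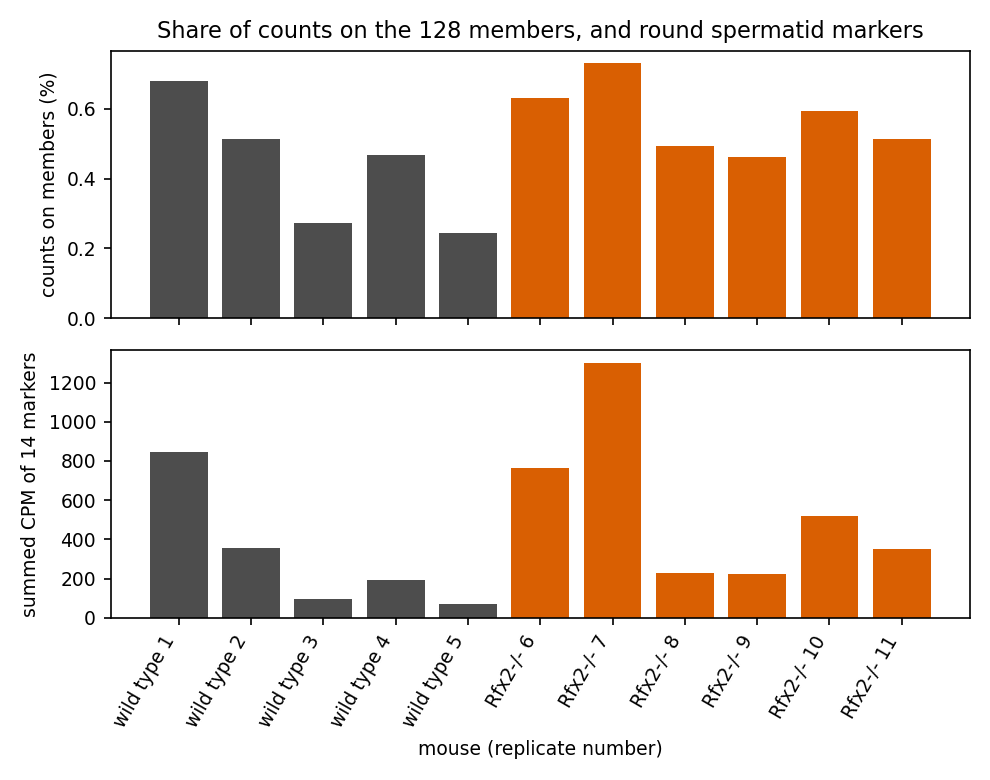
Share of counts on the 128 members (top, percent of the library) and summed level of 14 round spermatid markers (bottom, CPM) in each mouse, wild type in grey and Rfx2-/- in orange. Rfx2-/- 7 is the highest in both panels, at 0.730% and 1299 CPM, and wild type 5 the lowest in both, at 0.244% and 69.7 CPM.

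Per kilobase of exon the members covered a wide range of levels. The median over the tested members in wild type testis was 7.63 CPM per kb, beside 7.44 for the 15610 tested genes with a length, and single members ran from 0.277 to 218.7 CPM per kb. The 5 most abundant members per kb were 1700123L14Rik, 1700029F12Rik, 1700102P08Rik, 1700010I14Rik and the lincRNA 1700018B24Rik. Their wild type means, in this order, were 218.7 ± 124, 206 ± 117, 188 ± 56.5, 185 ± 88.2 and 164 ± 67.1 CPM per kb (SD, n = 5). The gaps between neighbours in this order were smaller than their spread. In Rfx2-/- testes the same genes were at 394 ± 70.5, 349 ± 69.3, 215 ± 9.56, 352 ± 51.8 and 254 ± 24.7 CPM per kb (SD, n = 6). None of the 5 was called by edgeR, and DESeq2 called 1700010I14Rik higher. 1700123L14Rik, a gene of 440 codons, overlaps the span of Fam19a1. It had 635, 482, 180, 482 and 132 CPM in wild type mice and 546 to 841 CPM in Rfx2-/- mice. Without regard to length, the 5 members with the highest CPM took 34.5% of the members' CPM in wild type mice.

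Among members not called, 18 lay within 0.25 of 0 on the log2 scale. The most abundant of these per kb were 1700102P08Rik, 1700006A11Rik, 1700016K19Rik, 1700020N01Rik and 1700017B05Rik. 1700102P08Rik was at 275, 275, 151, 297 and 162 CPM in wild type mice and at 247 to 283 CPM in Rfx2-/- mice, with a log2 fold change of 0.20 ± 0.17 (adjusted p = 0.394 by edgeR). 1700006A11Rik was at 252, 239, 147, 249 and 130 CPM against 172 to 222 CPM, with a log2 fold change of −0.01 ± 0.18. 1700016K19Rik was at 103, 73.3, 25.5, 62.8 and 22.7 CPM against 47.5 to 73.9 CPM, with 0.07 ± 0.36 on the log2 scale. The sign of the latter pair turned under other settings, and both have promoters in the RFX2-bound list. 1700020N01Rik, with 34.5 to 55.9 CPM in wild type mice and 44.5 to 58.9 CPM in Rfx2-/- mice, differed by 0.20 ± 0.14 on the log2 scale.

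**Figure D5:**
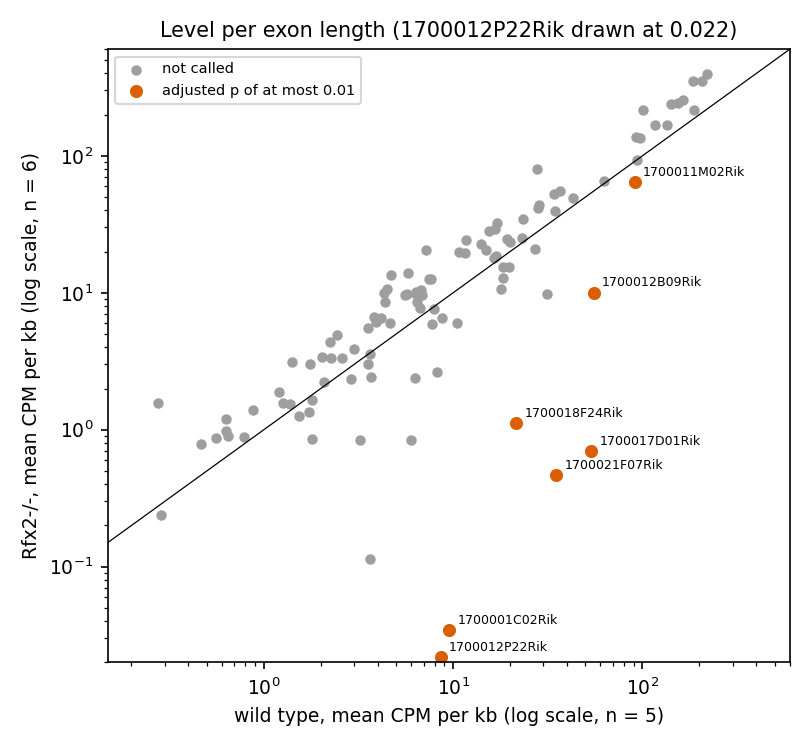
Mean level per kilobase of exon in wild type (horizontal) and Rfx2-/- testes (vertical) for the 107 tested members, on logarithmic axes with the line of equality. The 7 called members (orange) lie below the line. 1700012P22Rik, with a Rfx2-/- mean of 0.00761 CPM per kb, is drawn at the lower edge, and the 5 most abundant members lie above the line.

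Promoters of 21 members were in the study's list of RFX2-bound promoters, and 19 of these members were tested. This was 17.8% of the tested members, beside 6.02% of all tested genes. Of the 19, 1700001C02Rik, 1700017D01Rik and 1700021F07Rik were downregulated more than 2-fold, which is 15.8%, beside 47 of the 948 bound genes tested in all (4.96%). Another 3 of the downregulated members were among the 88 without a bound promoter. The median log2 fold change was −0.01 over the 19 and 0.54 over the 88, and 9 of the 19 were above 0. Bound promoters thus belonged both to members that were nearly silent in Rfx2-/- testes and to 1700010I14Rik and 1700003E16Rik, which stood at 0.93 and 1.08 on the log2 scale. Whether bound and other members differed was not tested.

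The full X-box pattern was found in 6 of the 95 members with a RefSeq promoter (6.32%), beside 2.16% of the promoters of 27025 genes. The arm GTTGCC, on either strand and counted also where it is part of the full pattern, was found in 23 (24.2%), beside 14.1%. Of the 6 members with the full pattern 1700012P22Rik was called lower. The others were 1700109H08Rik, 1700010I14Rik, 1700034J05Rik, 1700029J07Rik and 1700088E04Rik. 1700034J05Rik, with the match GTTGCCATGGTAAC 32 bases before its start and a bound promoter, was at 145, 73.2, 11.4, 36.4 and 7.86 CPM in wild type mice and at 7.02 to 101.5 CPM in Rfx2-/- mice. Its genotypes overlapped over nearly the whole range (log2 fold change −0.50 ± 0.85, adjusted p = 0.658 by edgeR). With the round spermatid score as a covariate it was called lower (−1.64 ± 0.25, adjusted p = 0.00121 by edgeR). 1700088E04Rik, with the match GTTACCATGGTAAC across its start, had a log2 fold change of 0.36 ± 0.25. A match describes letters and does not show binding.

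In the study's marking of genes with evidence for a part in cilia, taken from the CilDB database, 11 members were marked and 10 tested. They were the 3 microtubule inner protein genes called lower, 4 of the 7 members below −1 without a call, and 1700029J07Rik, 1700013F07Rik and 1700010I14Rik, which stood at 0.41, 0.70 and 0.93 on the log2 scale. The median of the 10 was −1.79. The study's list that carries this mark holds only RFX2 targets and genes differentially expressed in Rfx2-/- testes. Members neither bound nor changed could not be marked, so this median was partly set by the list and describes no cilia genes beyond it. The 20 tested members that are not protein coding contained no call by edgeR, with 17 above 0, a median of 0.63 and a range of −0.39 to 2.51. Of all genes tested 1.94% were called lower and 0.73% higher, so an absence of calls among 20 lies close to these shares. Reads had been counted on protein coding isoforms, and these 20 do not stand for noncoding clones at large.

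Position in the genome and clone series were also compared. Within 10 Mb of Rfx2 on chromosome 17 lie 4 members, of which 3 were tested and none was called. Of all genes tested 1.94% were called lower and 0.73% higher, so 3 members are too few to tell anything about position. The closest, 1700061G19Rik or Acsbg3, starts 44.5 kb from the end of Rfx2 and had a log2 fold change of 0.72 ± 1.198 (adjusted p = 0.652 by edgeR). RIKEN genes with names from 4930 to 4933 also come from testis libraries. Of the 120 of these tested, 2 were downregulated more than 2-fold (1.67%) and none was higher past 2-fold in edgeR, with a median log2 fold change of 0.36.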

How the data were processed

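Testis RNA of 5 wild type and 6 Rfx2-/- mice was analysed. The deposited table holds raw counts per gene and mouse, which the authors made from single TruSeq reads mapped to GRCm38. Labels and methods name CASAVA 1.8.2, STAR 2.4 and featureCounts 1.4.6. Reads with more than 1 position and reads on exons of different genes had been left out, and reads were counted on merged exons of protein coding isoforms without strand.

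Genotypes were compared with edgeR 4.0.16 in R 4.3.3 (filterByExpr, TMM, glmQLFit and glmQLFTest, genotype as the only term). The limit for a call was 0.01 after Benjamini-Hochberg adjustment. Standard errors were the fitted log2 fold change divided by the square root of F. Alternatives used DESeq2 1.42.0, limma 3.58.1 voom, other library sizes, filters and thresholds, a robust prior, a round spermatid score, and fits without single mice. The scripts were tested on simulated data. Whether the mice were independent litters was not fully stated, so p-values measure the spread between these mice.

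Named were all members called more than 2-fold lower (at most 25), all called more than 2-fold higher (at most 10), up to 3 called below 2-fold in each direction, the 5 with the highest CPM per kb, and the 5 highest among those within 0.25 of 0. Others are said to be named after their values were seen. Members and lists were chosen with earlier results of these data known. Bound and cilia marks are the study's own.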

Additional observations from a re-analysis of the deposited data

Results flagged for a closer look

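Over the members given by name and the share of counts on members, 56 groups of mice were checked for a single mouse far from the others, and 4 stood out, where chance gives about 1 in 20. For 1700019D03Rik wild type replicate 1 was at 31.8 CPM, with the other wild type mice at 0.0314 to 6.19, and Rfx2-/- replicate 7 was at 15.98 CPM, with the others at 0.0925 to 3.43. For 1700001O22Rik Rfx2-/- replicate 7 was at 3.47 CPM, with the others at 0.622 to 1.64. For 1700012P22Rik Rfx2-/- replicate 9, at 0.0445 CPM from 1 read, was the only mouse of its genotype above 0.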

How the results depend on the processing

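No paired analysis was possible because the sample labels do not give the litter of each mouse. Littermates were used where possible, so any litter structure was left out of the fits. The 6 members downregulated more than 2-fold were 20 with the round spermatid score as a covariate. The share of all genes past this limit was 1.04% without the covariate and 2.34% with it. The 7 lower at any fold change were 22 with the covariate, a count given without a share over all genes. Members higher past 2-fold, 0 in edgeR with adjusted p, were 2 with DESeq2, 1 at an unadjusted p of at most 0.01 and 1 with the covariate. At any fold change they were 4, 3 and 3 under the same settings. Over all genes the shares with DESeq2 were 0.686% past 2-fold and 7.28% at any fold change. With the covariate 0.324% were higher past 2-fold. The other counts here are given without a share over all genes. Leaving out 1 mouse at a time gave 5 to 8 members downregulated more than 2-fold, 5 without Rfx2-/- replicate 9 and 8 without wild type replicate 5. No share over all genes is given for the fits with a mouse left out. Members with every Rfx2-/- mouse above every wild type mouse numbered 3 to 15 in these fits. There were 15, 6 and 7 when wild type replicate 1, wild type replicate 4 or Rfx2-/- replicate 9 was missing. With values unchanged, leaving out a mouse can remove an overlap but not make one. Wild type replicate 1 was the highest wild type mouse for 92 of the 107 tested members. The share over all genes is given only for the full set of mice (6.5%), so these counts have no comparison. The call of 1700011M02Rik was also lost with total counts as library sizes (adjusted p = 0.0108 by edgeR) and with no filter beyond 1 count (adjusted p = 0.0117). The sign of 1700006A11Rik turned to 0.015 with DESeq2's size factors and with its Wald test, and lay between −0.12 and 0.076 with 1 mouse left out. That of 1700016K19Rik turned to −0.045 with total counts, −0.12 with voom and −0.22 with the covariate, and lay between −0.13 and 0.38 with 1 mouse left out. 1700019D03Rik ran from −2.59 to 1.05 with 1 mouse left out. The 21 members below the filter on low counts had 3 to 336 counts in all, and no edgeR call is given for them.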
